A study of Homo sapiens with 12 samples.

Results

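SMARCB1 re-expression was compared with GFP expression in cells exposed to dBRD9-A, a compound that degrades the chromatin protein BRD9. The 6 ATAC-seq libraries labelled with dBRD9-A, 3 with GFP and 3 with SMARCB1 induced, were taken from the 12 libraries of the study by their labels, and their peak lists were merged into 148263 regions wherever peaks overlapped by at least 1 bp. All libraries came from G401, an established human rhabdoid tumour cell line with the genotype SMARCB1(-/-), so the GFP cells had no SMARCB1 of their own. Every group received doxycycline for 24 h, which induced GFP in the control cells and SMARCB1 in the others, and the compound or the vehicle DMSO was given with it. The 4 groups were GFP with DMSO, SMARCB1 with DMSO, GFP with dBRD9-A and SMARCB1 with dBRD9-A, each with 3 libraries. The results therefore describe 1 cell line and 1 time after induction. The comparison asks what SMARCB1 does to accessible chromatin in cells in which BRD9 has been targeted for degradation.

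SMARCB1 is a core subunit of the canonical BAF and PBAF forms of the SWI/SNF complex, machines that use ATP to slide or evict nucleosomes and so open enhancers and promoters. BRD9 is a subunit of a further form, non-canonical BAF, which is built without SMARCB1. Rhabdoid tumours are aggressive childhood cancers defined by loss of SMARCB1, and they depend on BRD9 for growth. In ATAC-seq a transposase inserts adapters into accessible DNA, and a peak marks a stretch where fragments pile up above the local background. Here the peaks were called from nucleosome-free fragments, in each library separately. The signal within such a list is the authors' fold, which is the height of the fragment pileup at the summit relative to the background. Coordinates are 1-based in hg19.

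Many more peaks were called with SMARCB1 than with GFP when BRD9 was targeted in both. The GFP lists held 33428, 35289 and 50089 peaks in replicates 1 to 3, a mean of 39602 ± 9130 (SD, n = 3). With SMARCB1 the lists held 88244, 71169 and 96572 peaks, a mean of 85328 ± 12950 (SD, n = 3), which is 2.15 times as many. The lowest SMARCB1 list was longer than the highest GFP list, and the peaks were also wider. Peaks covered 5.18, 5.44 and 7.94 Mb with GFP and 14.7, 11.0 and 15.7 Mb with SMARCB1, a difference of the means of 7.62 Mb. The median peak width was 113, 114 and 117 bp with GFP and 128, 120 and 127 bp with SMARCB1, 10.3 bp apart on average. The groups did not overlap in any of these 3 measures, and each gave a two-sided exact permutation p of 0.1 (also 0.1 after Benjamini-Hochberg adjustment over 5 such tests), the smallest that 3 against 3 libraries can give. The labels do not say whether the replicates were separate cultures, so a p measures the spread between these libraries only, which may be technical.

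Depth differed between libraries in part along the same line. Read totals were not analysed here, and the lowest background pileup in a list, which scales with the number of fragments, stood in for them. It was 0.0395, 0.0383 and 0.0784 fragments with GFP and 0.0950, 0.0487 and 0.111 with SMARCB1, a ratio of means of 1.63 with an exact permutation p of 0.2. The groups overlapped in this measure, since GFP replicate 3 was deeper than SMARCB1 replicate 2. At the regions that all 6 lists shared, the geometric mean summit pileup was 11.5, 12.7 and 20.8 fragments with GFP and 18.4, 11.8 and 18.1 with SMARCB1, a ratio of 1.08 with an exact permutation p of 0.9. Scaling every library down to the lowest background left a mean difference of 21830 peaks, and scaling to equal pileup at the shared regions, an alternative chosen after seeing the data, left 31285.

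Of the 148263 merged regions, 19840 had a peak in all 3 SMARCB1 libraries and in no GFP library (13.4% of all regions) and are called gained here. The reverse pattern, a peak in all 3 GFP libraries and in none with SMARCB1, was found at 568 regions (0.383%), called lost. Gained regions therefore made up 97.2% of the one-sided regions (95% Wilson interval 97.0 to 97.4%, which covers counting error only). These are counts of a pattern and not tests, because an exact test of presence at 1 region cannot go below p = 0.1 with 3 libraries against 3. A missing peak means that none was called at that depth, which does not show closed chromatin.

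The direction held when list length or a measure of depth was made equal, but its size did not. When every list was shortened to the length of the shortest by the strength of its peaks, 5560 regions were gained and 3074 lost, so 64.4% of one-sided regions were gained. With libraries scaled to the lowest background the counts were 12224 and 936, or 92.9% gained, and with equal pileup at the shared regions 15846 and 676, or 95.9%. The 2 measures of depth differ between the groups by different amounts, as given above, so neither scaling equalises both. Single libraries also set these numbers, since any library without a peak takes a region out of the pattern. Without SMARCB1 replicate 2, the shallowest of its group, 30669 regions were gained. Lost regions numbered 1553 without GFP replicate 1, 1222 without GFP replicate 2, 923 without SMARCB1 replicate 1 and 958 without SMARCB1 replicate 3.

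**Figure D1:**
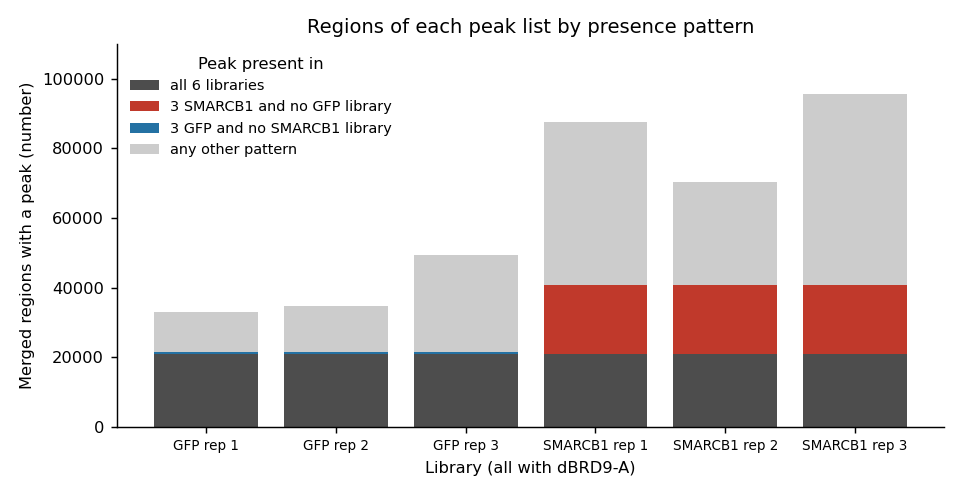
Number of merged regions with a peak in each of the 6 dBRD9-A libraries (vertical axis), stacked by presence pattern. The 20926 regions common to all lists form the same base in every bar, the 19840 gained regions appear in the 3 SMARCB1 bars, and the 568 lost regions are a thin line in the 3 GFP bars.

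The lists shared a common core and differed around it. A peak in all 6 libraries was found at 20926 regions (14.1% of the total), and 65635 regions (44.3%) had a peak in 1 library alone. The core made up 63.7, 60.3 and 42.3% of the regions in the GFP lists and 23.9, 29.8 and 21.9% of those in the SMARCB1 lists. Gained regions made up a further 22.6, 28.3 and 20.7% of the SMARCB1 lists, so in each of them the gained set was nearly as large as the core. Regions seen in 1 list alone accounted for 7.89, 6.59 and 18.1% of the GFP lists and 19.0, 13.5 and 26.8% of the SMARCB1 lists, with the deepest library of each group holding the most.

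Between the extremes the asymmetry was smaller. A peak in all 3 SMARCB1 libraries and in 1 or 2 GFP libraries was found at 7103 regions, against 3273 regions with the mirror pattern. Of the 24862 regions with a peak in exactly 3 of the 6 libraries, 82.1% were gained or lost, that is, split fully by induction and not across it. Single libraries were unevenly represented in the partial patterns. Of the 3445 regions with 3 SMARCB1 libraries and 1 GFP library, 2528 (73.4%) had their GFP peak in replicate 3, the deepest GFP library. Of the 18738 regions with 2 SMARCB1 libraries and no GFP library, 10829 (57.8%) lacked the peak in SMARCB1 replicate 2. Of the 2283 regions with 3 GFP libraries and 2 SMARCB1 libraries, 1189 (52.1%) likewise lacked it in that library, which had the lowest background of its group. SMARCB1 replicate 3, with the highest background, held 75.6% of the 18738 regions and replicate 1 held 82.2%. By geometric mean summit pileup at the shared regions, replicate 1 was the highest of its group, with 18.4 against 11.8 and 18.1 fragments in replicates 2 and 3. The part of depth in these patterns was not tested.

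**Figure D2:**
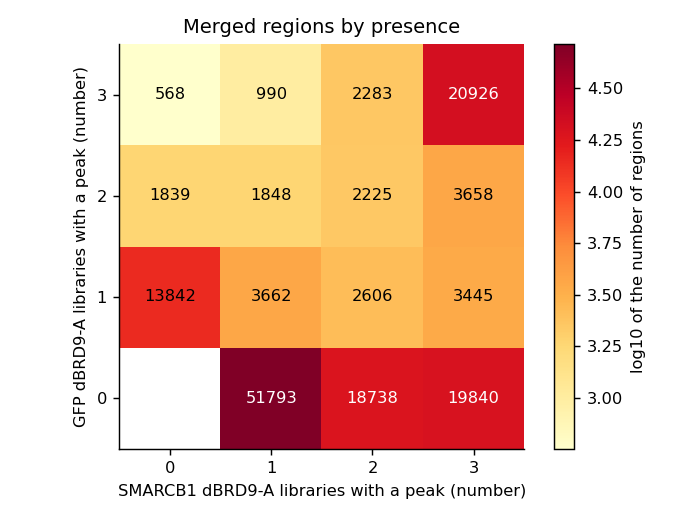
Merged regions by the number of SMARCB1 (horizontal axis) and GFP (vertical axis) dBRD9-A libraries with a peak, with the count in each cell and colour for its log10. Cells below the diagonal hold more regions than their mirror cells, most strongly at the corner with 3 SMARCB1 libraries and no GFP library (19840 against 568).

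Gained regions lay around the middle of their own lists, and lost regions lower in theirs. The median gained region ranked at percentile 61.9, 49.7 and 63.2 of the SMARCB1 lists by fold, with a summit pileup of 9, 6 and 10 fragments. Lost regions ranked at percentile 31.3, 31.2 and 43.2 of the GFP lists, with 5, 5 and 8 fragments. Shared regions stood above both within each list, at percentile 67.7, 69.4 and 78.5 of the GFP lists and 83.3, 80.5 and 83.1 of the SMARCB1 lists. Gained regions were also broader than lost ones: the median merged width was 227 bp for gained, 134 bp for lost and 246 bp for shared regions. In absolute terms the strengths overlapped: the median fold of gained regions was 7.72, 5.67 and 7.85 in the SMARCB1 libraries and that of lost regions 5.17, 5.50 and 6.49 in the GFP libraries. The lists differ in length, so percentiles of GFP and SMARCB1 lists are not on 1 scale. Among gained regions 11891 (59.9%) reached a mean percentile of at least 50 and 787 (3.97%) one of at least 90. These strengths come from the lists that defined the patterns and are given as a description.

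The strongest gained regions were among the highest peaks of the SMARCB1 lists. The 8 with the highest mean percentile, which all lay at 99.3 or above, are named. The first, chr4:99981347-99981741, had folds of 34.5, 26.6 and 29.7 in SMARCB1 replicates 1 to 3, a mean of 30.3 ± 3.95 (SD, n = 3), and no peak in any GFP dBRD9-A library. The next, chr10:123942662-123942973, had folds of 30.9, 23.5 and 34.4, and chr5:149757574-149757821 had 28.5, 26.9 and 30.8. The DMSO libraries, which had no part in the choice, gave the same picture at these 3 regions, with a peak in 3 of 3 SMARCB1 DMSO and in 0 of 3 GFP DMSO libraries.

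The remaining named gained regions were of similar height. Region chr13:113366004-113366450 had folds of 32.7, 23.6 and 26.9, and chr16:16115898-16116189 had 33.2, 21.9 and 28.7. These differed from the others in having a peak without SMARCB1 in DMSO, in 2 of 3 and in 1 of 3 GFP DMSO libraries. Region chr7:105416495-105416821 had folds of 29.2, 20.3 and 31.1, chr16:14051249-14051524 had 29.0, 20.4 and 25.8, and chr2:235748974-235749208 had 26.2, 21.5 and 26.3. The last 3 had a peak in every SMARCB1 DMSO library and in no GFP DMSO library. Genes could not be assigned to any region, because no annotation of hg19 was used here.

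The 5 strongest lost regions had folds between 12.1 and 25.7. Region chr3:14393615-14393913 had folds of 23.4, 22.9 and 25.2 in GFP replicates 1 to 3, a mean of 23.8 ± 1.204 (SD, n = 3). It had a peak in 3 of 3 GFP DMSO and 0 of 3 SMARCB1 DMSO libraries, and it was no longer lost when presence required peaks to cover 50% of a region. Region chr3:136420914-136421003, only 90 bp long, had folds of 19.6, 15.6 and 25.7 and no peak in any of the 6 DMSO libraries. So the second strongest loss was not seen under the vehicle, unlike the first. The others were chr12:122300473-122300651 (folds 12.4, 14.03 and 22.1), chr6:72130492-72130764 (14.04, 12.6 and 18.7) and chr16:81763961-81764337 (16.1, 12.4 and 12.1). Each of these had a peak in 3 of 3 GFP DMSO libraries, and in 0, 0 and 1 SMARCB1 DMSO libraries.

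One gained stretch is described for the edges of its peaks. At 16 of the 19840 gained regions (0.0806%) the peak had identical start and end in all 3 SMARCB1 libraries, against 30 of the 20926 shared regions in the same libraries. The highest of the 16 was chr22:24129357-24129451, 95 bp long, with folds of 31.8, 17.4 and 38.0. In a window of 65 kb around it, chr22:24120001-24185000, which was chosen after its peaks were seen, the 3 GFP dBRD9-A and 3 GFP DMSO libraries had 0 peaks. The SMARCB1 dBRD9-A libraries had 6, 3 and 5 peaks there and the SMARCB1 DMSO libraries 6, 4 and 6, each between 85 and 171 bp long. The gene SMARCB1 is known to lie on chromosome 22. Whether these peaks fall in it or come from the induced construct was not tested, for want of an annotation of the build. The 95 bp region was picked as gained, so the dBRD9-A libraries separate there by construction. In DMSO, whose libraries had no part in that pick, each SMARCB1 library had a peak there and no GFP library did.

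Most gained regions lay away from the shared core. The nearest shared region was 10 to 100 kb away for 11210 of them (56.5%) and more than 100 kb away for 5029 (25.3%). It was within 1 kb for 369 (1.86%) and between 1 and 10 kb away for 3232 (16.3%). The few gained regions beside a shared region were not weaker than the rest: the median of their mean percentile was 56.9 within 1 kb, 59.0 from 1 to 10 kb, 56.2 from 10 to 100 kb and 52.2 beyond. Lost regions lay closer to the core, with 32 (5.63%) within 1 kb, 181 (31.9%) from 1 to 10 kb, 271 (47.7%) from 10 to 100 kb and 84 (14.8%) beyond. Their median percentile was 39.6, 40.3, 32.3 and 27.7 in the same order, so the remote ones were the weakest. Regions of 1 genome are not replicates, and no test was made of these distances.

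Gained and shared regions were spread differently over the chromosomes. Over the genome there were 0.948 gained regions for each shared one. The ratio was highest on chromosome 18, with 472 gained and 283 shared regions (1.67), followed by chromosome 13 with 524 and 391 (1.34), and by chromosomes 3, 4 and 8. It was lowest on chromosome 19, with 424 gained and 1581 shared regions (0.268), then on chromosome 17 with 688 and 1292 (0.533). Chromosomes 17 and 19 are known to be dense in genes, and 13 and 18 to be poor in them, and the ratio was low on the former and high on the latter. As a share of all merged regions, gained regions made up 16.2% on chromosome 18 and 7.72% on chromosome 19, while chromosome 13 at 13.97% was close to the 13.4% over the genome. Lost regions did not follow the same order: per shared region there were 0.0297 on chromosome 19 (47 lost regions) and 0.0355 on chromosome 12 (39), against 0.0271 over the genome.

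**Figure D3:**
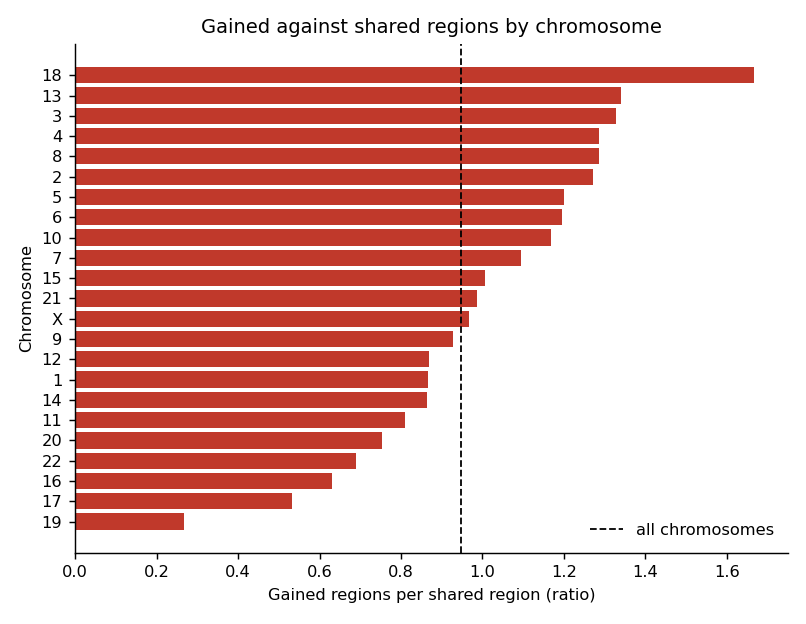
Gained regions per shared region on each chromosome (horizontal axis, ratio), with the value over all chromosomes, 0.948, as a dashed line. Chromosome 18 lies highest at 1.67 and chromosome 19 lowest at 0.268.

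Many gained regions had a gained neighbour. With neighbours joined at gaps of up to 12500 bp, the 19840 gained regions formed 15976 groups, of which 13060 were single regions. Groups of 2 or more held 6780 regions (34.2%), and 55 groups of 5 or more held 307 regions. The largest, 1 group of 10 regions, lay on chromosome 8 or 18 and is not named. Lost regions were scattered, with 35 of 568 (6.16%) in groups of 2 or more. Gained regions are far more numerous than lost ones, and the difference in grouping was not tested.

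Outside these chromosomes the largest groups had 7 gained regions each, and 5 of the 8 such groups are named, taken in order of chromosome label. Group chr15:36626269-36666037 spanned 39.8 kb and held no shared region. It had 0 peaks in each of the 3 GFP dBRD9-A libraries and 8 in each of the 3 SMARCB1 dBRD9-A libraries. The DMSO libraries read the same way, with 0 peaks in each of the 3 GFP libraries and 8, 6 and 9 with SMARCB1. Group chr10:3928871-3966880 (38.0 kb) had 0 peaks with GFP and 7, 7 and 8 with SMARCB1 under dBRD9-A. In DMSO it had 0, 1 and 0 peaks with GFP and 7 in each SMARCB1 library. Both stretches thus had no called peak with GFP and several with SMARCB1 under dBRD9-A, while in DMSO 1 GFP library had a peak in the second. The others, chr1:12632651-12676298, chr10:112369358-112397191 and chr12:116946745-116980642, had between 1 and 3 peaks in the GFP dBRD9-A libraries and between 7 and 10 with SMARCB1. Of their 7 gained regions, 6, 6 and 3 had a peak in all 3 SMARCB1 DMSO libraries.

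Within the shared core, SMARCB1 moved a small part of the regions up the ranking and a smaller part down. The fold of each of the 20926 shared regions was ranked within its library from 0 to 100, so that the rankings are of equal length and rises balance falls. With limma and Benjamini-Hochberg adjustment at 0.05, 370 regions ranked higher with SMARCB1 (1.77%) and 42 ranked lower (0.201%), so 89.8% of the called regions were higher. At an unadjusted p under 0.05 there were 3047. The higher regions were near the bottom of the GFP rankings: their median percentile was 14.2, 11.8 and 15.3 in the GFP libraries and 83.7, 81.7 and 83.7 in the SMARCB1 libraries. Of the 370, 265 had a mean percentile under 25 with GFP and 250 one over 75 with SMARCB1. The median rise was 57.9 percentile points (range 15.3 to 92.1). The lower regions went from a median of 81.3, 85.8 and 80.0 to 27.8, 20.1 and 25.4, a median fall of -45.5 points. The calls were made on these same percentiles, and on a scale from 0 to 100 a large rise needs a low start. The positions in the rankings are therefore a description.

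The numbers of calls depended on the scale and on single libraries, while the excess of higher regions did not turn. On normal scores of the rank 597 regions were higher and 136 lower (81.4% higher), and on the centred log2 fold 618 and 196 (75.9% higher). Higher calls numbered 151, 119, 113, 220 and 137 without GFP replicate 1, GFP replicate 2 and SMARCB1 replicates 1, 2 and 3 in turn. Lower calls numbered 8, 5 and 16 without GFP replicates 1, 2 and 3, and 9, 23 and 10 without SMARCB1 replicates 1, 2 and 3. Of the 370, between 111 and 220 stayed called with 1 library left out, and of the 42 between 4 and 15. Their direction could not turn in this check, because the groups did not overlap at any of the 370 or the 42. Over all 20926 shared regions, every SMARCB1 library lay above every GFP library at 2094 and below at 1942.

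**Figure D4:**
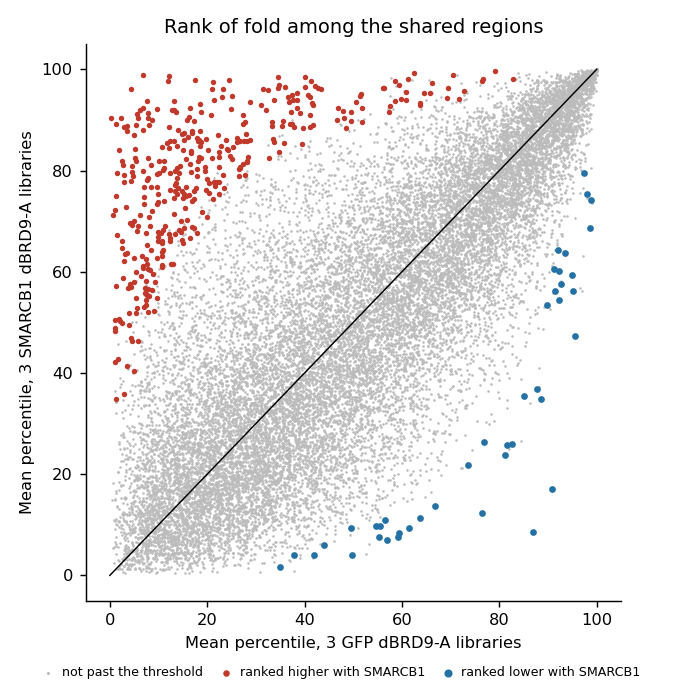
Mean percentile of fold of each of the 20926 shared regions in the 3 GFP (horizontal axis) and 3 SMARCB1 (vertical axis) dBRD9-A libraries, with the line of equal rank. The 370 regions ranked higher (red) lie mostly at low GFP rank, and the 42 ranked lower (blue) lie below the line.

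Regions on chromosomes 8 and 18 are counted and not named, and 2 of them rose by more than the last of the 6 regions named here, 1 of these by more than the first. The named region that rose most, chr3:139477678-139478094, had folds of 4.63, 3.78 and 6.08 with GFP and 25.7, 21.97 and 22.4 with SMARCB1. Its percentile went from 7.19, 1.48 and 4.56 to 96.2, 98.3 and 93.5, a difference of 91.6 ± 11.8 points (SE; limma adjusted p = 0.00708, the same value for the 5 regions that follow). It was thus one of the weakest shared peaks in all GFP dBRD9-A libraries and one of the strongest in all SMARCB1 dBRD9-A libraries. In DMSO its folds were 16.4, 6.91 and 4.41 with GFP and 21.8, 22.3 and 18.1 with SMARCB1. Region chr10:11815719-11816292 had GFP folds of 2.86, 2.78 and 2.78 and SMARCB1 folds of 21.6, 18.4 and 20.4, a rise of 90.2 points. Region chr3:182677576-182677918 had 3.85, 3.75 and 4.51 against 26.3, 17.1 and 18.8, a rise of 88.1 points. Both had a peak in 2 of 3 GFP DMSO libraries and in all 3 SMARCB1 DMSO libraries.

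In the other regions of this kind, as at both chromosome 3 regions above, GFP replicate 3 had the highest fold of the GFP libraries. Region chr11:44199971-44200313 had folds of 3.76, 2.89 and 4.64 with GFP and 24.5, 14.6 and 21.4 with SMARCB1, a rise of 87.8 points. Region chr16:69951706-69952018 had 2.88, 4.76 and 8.57 against 28.5, 17.2 and 21.6, a rise of 86.2 points. Region chr10:11958089-11958347 had 3.76, 3.72 and 11.3 against 28.2, 21.2 and 24.8, a rise of 85.8 points. In the last, GFP replicate 3 stood apart at percentile 32.3, where the other GFP libraries were at 2.241 and 1.03, and the groups still did not overlap. It lies on the same arm of chromosome 10 as chr10:11815719-11816292.

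The region that fell most, chr17:37333648-37333900, had folds of 18.5, 19.4 and 19.8 with GFP and 7.11, 4.73 and 5.55 with SMARCB1. Its percentile fell from 90.6, 91.5 and 78.6 to 13.2, 6.23 and 6.03, a difference of -78.4 ± 12.01 points (SE; limma adjusted p = 0.00708). Region chr2:208030787-208031146 had folds of 20.4, 17.6 and 24.4 with GFP and 10.4, 4.76 and 6.47 with SMARCB1, a difference of -73.7 points (limma adjusted p = 0.0106). Both kept the call with each library left out. In DMSO the second had folds of 21.9, 17.6 and 16.8 with GFP and 7.33, 6.22 and 5.25 with SMARCB1, groups that again did not overlap.

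The next 4 were less firm. They were chr14:23442906-23443128 (-64.2 points, limma adjusted p = 0.0178), chr6:36750570-36750835 (-57.3 points, 0.0403), chr19:6552020-6552244 (-56.8 points, 0.0283) and chr7:4671257-4671492 (-55.9 points, 0.0352). The last 3 lost the call with any 1 of the 6 libraries left out, and the first without GFP replicate 2 or any 1 SMARCB1 library, with limma adjusted p between 0.0535 and 0.160. The last 2 also lost it among regions with a −log10 q of at least 5 in all lists (0.0513 and 0.0565). SMARCB1 replicate 2 had the lowest median fold of its group over the whole core, 9.92 against 12.9 and 12.3. In percentile it was the highest of its group at chr14:23442906-23443128, with 14.6 against 11.7 and 10.5. In fold it was the lowest of its group at all 4 regions, for example 4.89 against 11.3 and 8.62 in the other SMARCB1 libraries at chr6:36750570-36750835. The GFP folds there were 15.7, 13.6 and 24.9, above all 3.

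Called regions of both directions lay nearer to gained regions than the core as a whole. The nearest gained region was at a median of 22.1 kb from the 370 higher regions, with 25.7% within 10 kb, against 33.7 kb and 18.4% over all shared regions. For the 42 lower regions these values were 25.5 kb and 21.4%, so nearness was not limited to regions that ranked higher. The 42 lay at a median of 338 kb from the nearest lost region, against 1092 kb over all shared regions. The share of shared regions ranked higher was 3.53% on chromosome 18 and 3.38% on chromosome 8, against 0.822% on chromosome 19, 0.792% on chromosome 20 and 0.717% on chromosome X. Chromosomes 18 and 19 thus lay near the same ends as for gained regions, but other chromosomes did not. Chromosome 17, low for gained regions, had 2.01%, and chromosome 13, high for them, had 1.79%, against 1.77% over the core. These are descriptions without a test.

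Shared peaks also changed in width. The median covered width over the core was 149, 149 and 196 bp in the GFP libraries and 204, 178 and 201 bp in the SMARCB1 libraries, a shift of 0.25 on the log2 scale. Called widths can grow with depth, and GFP replicate 3, the deepest GFP library, was also the widest of its group. With each library centred on its own median, limma called 212 regions relatively wider (1.01%) and 83 relatively narrower (0.397%) with SMARCB1, so 71.9% were wider. After centring, the median difference over all shared regions was -0.17 on the log2 scale, and before it 0.08. Without centring the calls were 323 wider and 20 narrower (94.2% wider), so the split depends on it. Wider calls fell to 137 without SMARCB1 replicate 1, and narrower calls to 46 without GFP replicate 1 and 45 without GFP replicate 2.

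The wider regions went from short to broad peaks. Their median width was 104, 108 and 132.5 bp in the GFP libraries and 387.5, 337 and 382.5 bp in the SMARCB1 libraries. The narrower ones went from 298, 287 and 356 bp to 155, 110 and 155 bp. At 80 of the 83 every SMARCB1 width in bp was below every GFP width, against 701 of all 20926 shared regions. The calls were made on these same widths, so this separation is a description. Of the 370 regions ranked higher, 58 were also relatively wider (15.7% of the higher and 27.4% of the wider regions), and 4 were both lower and narrower. None was called in opposite directions on rank and width.

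Single regions show the size of these changes. Region chr4:152967003-152967686 was 88, 106 and 105 bp wide with GFP and 669, 656 and 684 bp with SMARCB1, a relative log2 difference of 2.50 ± 0.17 (SE; limma adjusted p = 0.000199). Region chr1:116088429-116089138 was 89, 85 and 131 bp against 595, 554 and 690 bp (2.37), and chr17:79541443-79541970 was 86, 85 and 86 bp against 526, 484 and 471 bp (2.28). Region chr12:26427425-26428029 was 86, 86 and 126 bp against 555, 398 and 594 bp (2.13). With GFP these were short peaks, and with SMARCB1 each spanned a stretch more than 3 times as long. Their folds were higher too, for example 3.79, 5.67 and 3.71 against 14.7, 11.0 and 15.7 at chr4:152967003-152967686.

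The regions that narrowed most did not all become weaker. Region chr10:28973174-28974400 was 846, 895 and 1099 bp wide with GFP and 149, 104 and 213 bp with SMARCB1, a relative log2 difference of -2.91 ± 0.20 (SE; limma adjusted p = 0.000199). Its folds were 11.8, 9.15 and 10.4 with GFP and 17.2, 12.1 and 12.3 with SMARCB1, so its summit was not lower while its breadth shrank. Region chr1:167426980-167427698 went from 666, 605 and 672 bp to 128, 86 and 188 bp (-2.59), and chr19:13296979-13297482 from 398, 385 and 488 bp to 180, 121 and 86 bp (-2.02). At the latter the folds were 10.3, 10.3 and 9.004 with GFP and 5.82, 5.25 and 4.70 with SMARCB1, lower in all 3 libraries. Region chr15:98445664-98446430 went from 650, 493 and 546 bp to 205, 93 and 289 bp (-1.91, limma adjusted p = 0.0162). It lost the call without centring (limma adjusted p = 0.120), with peaks of a −log10 q of at least 5 only (0.0634), without GFP replicate 1 (0.0550) and without GFP replicate 3 (0.0775).

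The DMSO libraries gave an independent reading of the same regions. Of the 19840 regions gained under dBRD9-A, 86.7, 90.02 and 87.6% had a peak in the 3 SMARCB1 DMSO libraries, a mean of 88.1 ± 1.73% (SD, n = 3). In the GFP DMSO libraries 4.32, 2.44 and 2.73% of them had one, a mean of 3.17 ± 1.01% (SD, n = 3). The difference of 84.9 percentage points had a two-sided exact permutation p of 0.1, the smallest possible, and no SMARCB1 library came near a GFP library. The SMARCB1 DMSO lists were also longer, with 76764, 90143 and 85925 peaks against 43712, 35279 and 35586 with GFP. The part of list length in the difference was not tested. Of the 20926 shared regions, 94.6 to 98.6% had a peak in a DMSO library of either group. The full gained pattern was found again at 13607 of the 19840 gained regions (68.6%), and 330 of the gained regions (1.66%) had no peak in any SMARCB1 DMSO library.

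Lost regions were found again less fully. A peak was present at 75.7, 61.4 and 56.9% of the 568 in the GFP DMSO libraries and at 14.1, 26.9 and 20.2% in the SMARCB1 DMSO libraries. The difference of -44.2 percentage points also had an exact permutation p of 0.1, and again the groups did not overlap. Without GFP dBRD9-A replicate 1 in the choice of regions it was -27.3 points. The lost pattern was found in full at 119 regions (21.0%), was reversed at 4 (0.704%), and 63 (11.1%) had no peak in any GFP DMSO library. How many of all merged regions had the gained or the lost pattern in DMSO is not given here. The shares found again in full therefore cannot be set against a share over all regions. The part of peak strength in this was not tested.

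**Figure D5:**
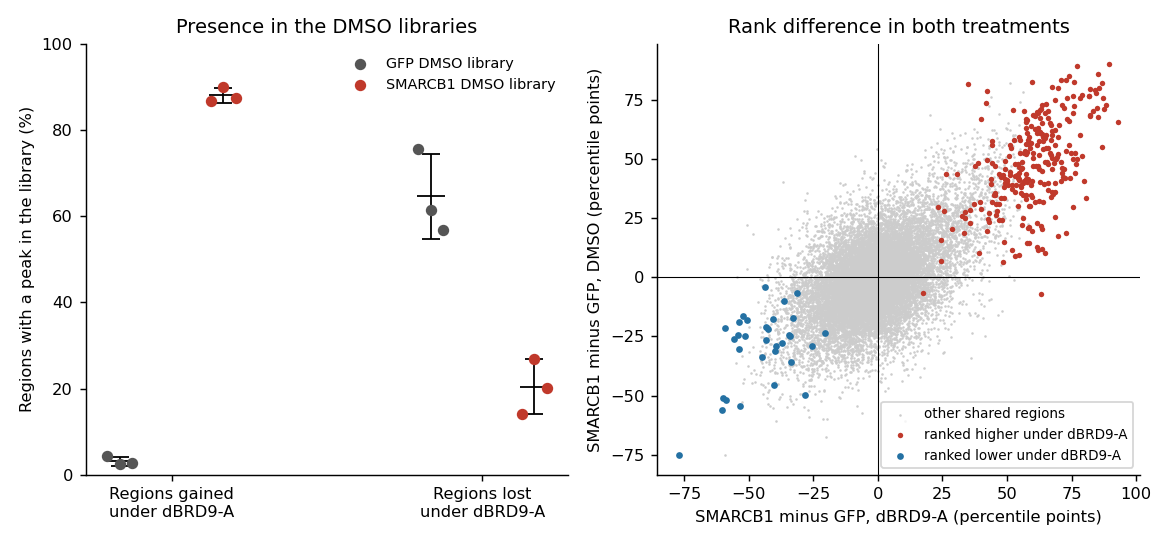
Left, share of the regions gained or lost under dBRD9-A that had a peak in each DMSO library (vertical axis, percent; points are libraries, bars the mean ± SD of 3). Right, SMARCB1 minus GFP difference in mean percentile under dBRD9-A (horizontal axis) and DMSO (vertical axis) at the 18114 regions in all 12 lists; nearly all regions called under dBRD9-A lie on the same side of 0 in DMSO.

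Rank differences under dBRD9-A were met by differences of the same sign in DMSO, which shares no library with them. Of the 370 regions ranked higher, 272 were in all 12 lists, and 270 of these (99.3%) were higher in DMSO too, against 46.6% of all 18114 regions in the 12 lists. Their median difference was 47.8 points in DMSO and 60.1 under dBRD9-A, and 167 passed the limma threshold in DMSO on their own. The regions were chosen on the dBRD9-A libraries, so the gap between these medians is no test of a difference. All 32 lower regions in the 12 lists were lower in DMSO, against 53.4% of all regions, and 10 were called there. Over all 18114 regions, limma called 322 higher (1.78%) and 92 lower (0.508%) in DMSO. Across these regions the 2 differences had a Pearson r of 0.597 and a Spearman rho of 0.470, a description over regions that are not independent replicates.

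Width behaved alike. Of the 212 relatively wider regions 155 were in all 12 lists, and 148 of them were wider in DMSO, against 35.8% of all regions. Their median relative log2 difference in DMSO was 0.998, and 75 were called. Of the 83 relatively narrower regions 61 were in all 12 lists, and 58 of these were narrower in DMSO, against 64.2% of all regions. Their median was -0.60, and 15 were called. How many of all regions were called on width in DMSO is not given here. The 75 and 15 calls therefore cannot be set against the calls over all regions, as was done for rank.

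Whether the SMARCB1 effect on rank differed between dBRD9-A and DMSO was tested with the interaction over the 18114 regions. With limma, 0 regions passed (0%), and 748 (4.13%) had an unadjusted p under 0.05. The count was also 0 with normal scores and when replicate numbers entered the fit. The median standard error of the interaction was 15.4 percentile points. With 3 libraries a group and adjustment over 18114 regions, differences well above that size at single regions could go uncalled. The count of 0 therefore does not show that the effects were equal. At chr2:208030787-208031146 the fall was -76.9 points under dBRD9-A and -75.2 in DMSO, and the interaction was -1.61 ± 15.7 points (SE). At chr7:4671257-4671492 the falls were -59.1 and -21.5 points, with an interaction of -37.6 ± 16.9 points (SE; limma adjusted p = 0.9999), a gap that did not pass the test. On relative width the same test, added after seeing the data, called 1 of the 18114 regions (0.00552%).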

How the data were processed

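Of the 12 ATAC-seq libraries, the 6 with dBRD9-A were compared by induction, and the 6 with DMSO were read as independent libraries. Per the submitters' processing notes the tools were BWA 0.7.12-r1039, SAMtools 1.2, bedtools 2.24.0, MACS2 2.1.1.20160309, DiffBind and DESeq2, with the build hg19; their settings are not given in the sources used here. Each library had its own list of peaks, filtered by the authors. The deposited lists give positions and summit offsets, a score that the authors' caller wrote and that was not used, the fold (a ratio of summit pileup to background), and the −log10 p and −log10 q as deposited. All deposited q-values were at or under 0.05. A list holds no reads, so a weak region can be missed in a shallow library.

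Solving fold and −log10 p together (pseudocount 1) returned each peak's pileup and background; all peaks gave a whole pileup within a tolerance of 0.001. To match the lowest background both were scaled down without random draws, and peaks were kept at a −log10 p of at least 4.02. Rank and width at shared regions were tested with limma 3.58.1 in R 4.3.3 (trend, Benjamini-Hochberg), and library measures by exact permutation over 20 arrangements. The scripts were tested on simulated data.

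The members, lists and rules were chosen with earlier results of these data known. Named were the 8 gained and 5 lost regions of highest mean percentile, the 6 shared regions of largest rank difference and the 4 of largest width difference in each direction, and 5 of the 8 largest groups of gained regions outside chromosomes 8 and 18; regions on chromosomes 8 and 18 were counted and not named, so larger values can lie there. Planned checks of annotation, motifs and gene lists were not run, since the reference tables in use are of another build than hg19.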

Additional observations from a re-analysis of the deposited data

Results flagged for a closer look

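One shared region showed a difference between treatments in the effect of SMARCB1 on relative width. At chr20:61592670-61593025 the SMARCB1 minus GFP difference in relative log2 width was 1.48 under dBRD9-A and -0.22 in DMSO, an interaction of 1.70 ± 0.17 (SE; limma adjusted p = 0.00753 over 18114 regions). It was the 1 region called (0.00552%), with 868 regions at an unadjusted p under 0.05, in a test added after seeing the data. The peak was 92, 86 and 126 bp wide in the GFP dBRD9-A libraries, 307, 321 and 322 bp with SMARCB1 and dBRD9-A, 326, 320 and 321 bp with GFP and DMSO, and 306, 324 and 298 bp with SMARCB1 and DMSO. The GFP dBRD9-A libraries were thus the short ones, apart from the other 9. The authors' folds were 7.07, 9.08 and 8.60 with GFP and dBRD9-A, 13.7, 11.2 and 10.4 with SMARCB1 and dBRD9-A, 15.5, 12.2 and 9.73 with GFP and DMSO, and 12.9, 14.2 and 8.76 with SMARCB1 and DMSO. The GFP dBRD9-A folds lay below those of the SMARCB1 dBRD9-A libraries but overlapped those of the SMARCB1 DMSO libraries. The cause was not tested.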

How the results depend on the processing

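No difference changed sign under any alternative run, but for much of this the check could not show a reversal. Counts and shares were scored only as same or moved. Groups that do not overlap also cannot change sign when 1 library is left out. Of the main values, 24 of 84 moved with 1 library left out and 25 of 62 under other settings. Moved means a count changed by more than 1.5-fold or a share outside its 95% interval. With a −log10 q of at least 5, gained regions numbered 11397 (96.3% of one-sided regions), higher and lower ranked regions 89 and 6, wider and narrower 139 and 23. Of the 370 higher and 42 lower regions, only 150 and 24 met this limit in all 6 lists and could be tested. The 6 named higher regions were not among them. Lists of equal length gave 5560 gained and 3074 lost (64.4%) and can give no peak number, and scaling to the lowest background gave 12224 and 936 (92.9%). Equal pileup gave a gained share of 95.9%, 50% cover 96.3%, and at least 2 of 3 libraries 38578 gained and 2407 lost (94.1%). Ranked higher and lower were 597 and 136 on normal scores and 618 and 196 on log2 fold. Ranked lower were 66 without limma's trend and 86 with all 12 libraries. Without centring 323 were wider and 20 narrower. The cause was not tested where construction does not show it. With 1 library left out, the ranges were 20232 to 30669 gained, 768 to 1553 lost, 92.9 to 97.4% gained, 113 to 247 higher, 5 to 23 lower, 137 to 185 wider and 45 to 101 narrower. Peak numbers then differed by 40105 to 52806, covered bases by 6.68 to 9.01 Mb and median widths by 8.83 to 12.8 bp, while DMSO shares differed by 74.1 to 85.6 points for gained and -48.2 to -27.3 for lost regions.

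Replicates of the same number deviated together only weakly (r of 0.0950, 0.0945 and 0.193 on rank, each above that with other numbers; on width replicate 1 had r = -0.00116), so the pairing was not used. With the replicate number as a block, limma called 429 higher, 62 lower, 209 wider and 96 narrower, and the 3 library measures had p = 0.25 by exact permutation within numbers, which is the lowest this allows; the difference of 45726 peaks, 7.62 Mb and 10.3 bp is the same by construction.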
